A study of Mus musculus with 8 samples.

Results

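Peaks of acetylated lysine 27 of histone H3 (H3K27ac) that began just past a gene's transcription start site (TSS) were examined in Oli-neu cells. A downstream peak was a peak that overlapped the stretch from just past 100 bp to 2000 bp after the TSS of a protein-coding gene and overlapped no promoter region, which reaches from 3000 bp upstream to 100 bp downstream of such a TSS. The members were therefore selected on measured values, the presence and the place of called peaks. The rule took 1211 of 28924 peaks (4.19%, 95% exact Clopper-Pearson interval 3.96% to 4.42%) in proliferating cells and 1179 of 27965 peaks (4.22%, 3.98% to 4.46%) in differentiating cells, or 2390 of 56889 peaks in all.

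Oli-neu is a mouse line that the labels give as embryonic progenitors of oligodendrocytes, the myelin-forming cells, from the C57BL/6 strain. Proliferating cells were kept with the growth factors bFGF and PDGF-BB, and differentiating cells were kept without growth factors and with the erb inhibitor PD174265 at 1 μM, for 1 day by the labels and for 2 days by the study's culture methods. The thyroid hormones T3 and L-thyroxine were in the proliferation medium. Both states were assayed by chromatin immunoprecipitation and sequencing with the same antibody and gave 1 library each, so no test between states could be run, and the intervals given here cover counting error only. Of 13 markers of the oligodendrocyte lineage, 5 (38.5%) had a promoter peak in either list and 3 (Olig2, Erbb3 and Cnp) had a downstream peak, against 33.8% and 9.26% of all protein-coding genes. Of 6 markers of astrocytes and 6 of neurons, 2 each (33.3%) had a promoter peak and 1 each had a downstream peak (Gja1 and Gap43), and of 5 microglial and 4 endothelial markers none had a downstream or a promoter peak.

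H3K27ac is placed on nucleosomes by the acetyltransferases CBP and p300 and is a mark of active promoters and enhancers. At an active promoter the TSS itself lies in a region depleted of nucleosomes, and the first nucleosomes on the transcribed side carry much of the acetylation. Many mammalian promoters lie in CpG islands, stretches rich in the CG dinucleotide, which often extend into the first exon and the first intron. First introns can also hold enhancers and alternative promoters, so a peak there may lie over any of these elements.

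The sequence under the members ranged from dense CpG islands to stretches without a single CG. The 6 stretches of 120 bases below lie inside downstream peaks that both lists held, in bases that no annotated transcript uses as an exon. They were taken from GRCm38, are written along the strand of the gene, and carry each CG in capitals.
Tcf12, chr9:72111424-72111543: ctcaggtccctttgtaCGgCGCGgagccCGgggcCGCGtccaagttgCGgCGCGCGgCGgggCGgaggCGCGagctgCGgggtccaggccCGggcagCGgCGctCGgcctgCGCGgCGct
Tax1bp1, chr6:52714047-52714166: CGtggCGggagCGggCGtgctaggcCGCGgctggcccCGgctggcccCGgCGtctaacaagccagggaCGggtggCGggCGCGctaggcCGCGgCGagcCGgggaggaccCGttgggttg
Dnmt3a, chr12:3806603-3806722: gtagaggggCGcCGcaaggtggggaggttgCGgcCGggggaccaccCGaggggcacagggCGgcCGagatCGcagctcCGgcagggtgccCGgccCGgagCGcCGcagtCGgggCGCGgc
Degs1, chr1:182282340-182282459: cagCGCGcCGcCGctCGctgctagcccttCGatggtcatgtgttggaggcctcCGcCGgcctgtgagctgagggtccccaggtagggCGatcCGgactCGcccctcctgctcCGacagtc
Cnp, chr11:100575348-100575467: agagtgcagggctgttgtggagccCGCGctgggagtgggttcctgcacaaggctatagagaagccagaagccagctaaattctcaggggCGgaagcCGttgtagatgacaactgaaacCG
Erbb3, chr10:128587380-128587499: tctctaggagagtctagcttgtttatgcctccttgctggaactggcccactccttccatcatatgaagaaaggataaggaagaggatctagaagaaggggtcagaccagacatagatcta
The stretch of Tcf12, a helix-loop-helix transcription factor, held 22 CG. Those of Tax1bp1, an autophagy receptor, of the DNA methyltransferase gene Dnmt3a and of the ceramide synthesis gene Degs1 held 18, 16 and 12. The stretch of the myelin enzyme gene Cnp held 5, and that of the neuregulin receptor gene Erbb3, which begins 2153 bp after the TSS, held 0.

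Some members with high fold enrichment lay on short repeats instead. The next 3 stretches, chosen and written in the same way but with 1 repeated unit in capitals, come from downstream peaks of Phf21a, Vmn2r4 and Asmt.
Phf21a, chr2:92093574-92093693: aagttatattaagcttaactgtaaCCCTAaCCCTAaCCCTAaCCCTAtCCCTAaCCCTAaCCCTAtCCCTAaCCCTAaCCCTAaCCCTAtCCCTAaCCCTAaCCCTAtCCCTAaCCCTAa
Vmn2r4, chr3:64414395-64414514: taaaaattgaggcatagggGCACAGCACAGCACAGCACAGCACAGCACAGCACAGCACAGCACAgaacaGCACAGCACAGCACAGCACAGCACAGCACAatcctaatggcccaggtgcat
Asmt, chrX:170673139-170673258: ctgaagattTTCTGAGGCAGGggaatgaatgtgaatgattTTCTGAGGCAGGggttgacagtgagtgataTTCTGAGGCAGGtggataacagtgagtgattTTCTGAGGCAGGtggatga
Phf21a encodes a reader of unmethylated histone H3, Vmn2r4 a vomeronasal receptor and Asmt an enzyme of melatonin synthesis. In Phf21a the unit CCCTA stood 16 times in 120 bases, 12 times as part of CCCTAA, the repeat of mammalian telomeres. In Vmn2r4 the unit GCACA stood 15 times, and in Asmt the unit TTCTGAGGCAGG stood 4 times. A run of 2 copies of CCCTAA, searched on both strands in the 500 bp at each peak's centre, were found in 88 of 28924 proliferating peaks (0.304%) and in 111 of 27965 differentiating peaks (0.397%). Of these peaks, 44 and 50 had a fold enrichment of at least 5. For scale, a fold enrichment of 5.03 stood at percentile 98.1 of all proliferating peaks and 5.02 at percentile 98.7 of all differentiating peaks. Among the members the Phf21a peak of proliferating cells was the single match. The wider Phf21a peak of differentiating cells also spans the stretch shown, but its centre lies farther downstream. Whether reads on such repeats map to this place alone could not be seen from peak lists, which limits what the fold enrichment of these peaks measures.

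Downstream peaks began close to the TSS. Their near edge lay at a median of 325 bp after the TSS for proliferating and 328 bp for differentiating members, their centre at 710 bp and 738 bp, and their far edge at 1054 bp and 1127 bp. The range of the near edge is set by the rule. Within it, 38.7% (36.0% to 41.5%) of the proliferating and 39.9% (37.1% to 42.7%) of the differentiating members began within 250 bp of the TSS. Their median widths were 558 and 612 bp, against 861 and 910 bp for promoter peaks and 652 and 755 bp for all peaks, and the rule leaves out wide peaks that reach the promoter region. Peaks found only upstream of a TSS were as narrow (533 and 542 bp).

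**Figure D1:**
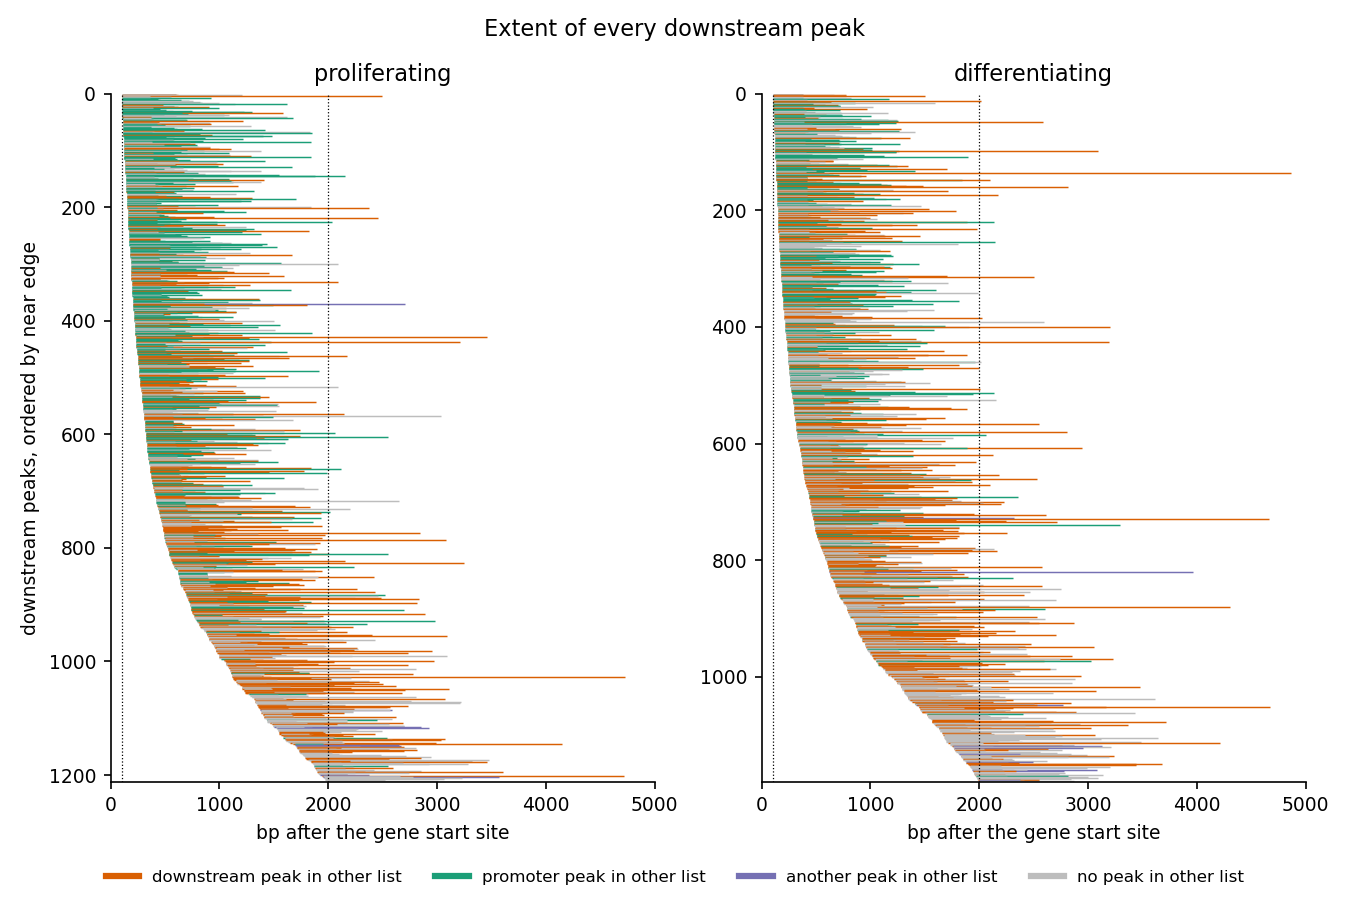
Each horizontal line is 1 downstream peak drawn from its near to its far edge in bp after the gene start site, ordered by near edge from top to bottom, with the 1211 proliferating members on the left and the 1179 differentiating members on the right. Colors give the peak it overlapped in the other list and dotted lines mark the limits of the rule, and 38.7% of the lines on the left and 39.9% on the right begin within 250 bp.

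The peaks on either side of the limits of the rule are given by their fold enrichment. The members that began on the first base past the promoter region included 1700019A02Rik and Slc39a6 in proliferating cells and had a fold enrichment of 3.35 and 3.63, where fold enrichment is the authors' ratio of signal over background. Peaks that began 1 base earlier, at 100 bp, and therefore counted as promoter peaks, were found at Tent2, Klhl24 and Rtca with 3.40, 4.29 and 3.92. In differentiating cells Cant1 and Cgrrf1 began on the first base past the promoter region with 3.21 and 3.42, and 4930505A04Rik and Fam3c at 100 bp and Map6d1 at 98 bp with 3.99, 4.17 and 2.97. At the far limit the proliferating peaks of Cdsn, Slc44a1 and Akr1b10 began at 2000, 1986 and 1981 bp with 3.11, 2.84 and 3.02, and those of Tnfrsf19, Zfp422 and Cfap77 at 2003, 2006 and 2007 bp, outside the rule, with the higher values of 3.38, 3.89 and 3.87. The differentiating peaks of Klhl11, Rxfp2 and Mfsd2a began at 2000, 1999 and 1995 bp with 3.06, 3.23 and 2.39, and those of Stx19, Angptl4 and Cd55b at 2005, 2005 and 2008 bp, outside the rule, with 3.30, 3.29 and 2.92.

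H3K27ac cover was shifted to the transcribed side of the gene TSS as a whole, and downstream peaks were its outer part. At 500 bp after the TSS, 2948 of 21951 protein-coding genes (13.4%) lay under a peak of any class in proliferating cells, against 1815 (8.27%) at 500 bp before it, a ratio of 1.62. In differentiating cells the shares were 16.4% and 9.85%, a ratio of 1.66. At 1000 bp the ratios were 1.97 and 1.98. Distances run from the gene TSS, the outermost annotated start, and the ratios were not recomputed with the starts of every transcript. A start used farther in would place cover on the same side, and its part was not tested. Promoter peaks covered the most genes at 100 bp after the TSS (18.2% and 22.3%), where the rule moves peaks that begin later to the downstream class. Both classes together covered more genes at 150 bp (18.8% and 23.0%). Downstream peaks covered the most at 400 bp in proliferating cells (3.15%) and at 500 bp in differentiating cells (3.01%). Of the genes covered at 250 bp after the TSS, downstream peaks covered 11.6% and 9.38%, at 1000 bp 37.9% and 35.0%, and at 1500 bp 53.7% and 48.3%.

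**Figure D2:**
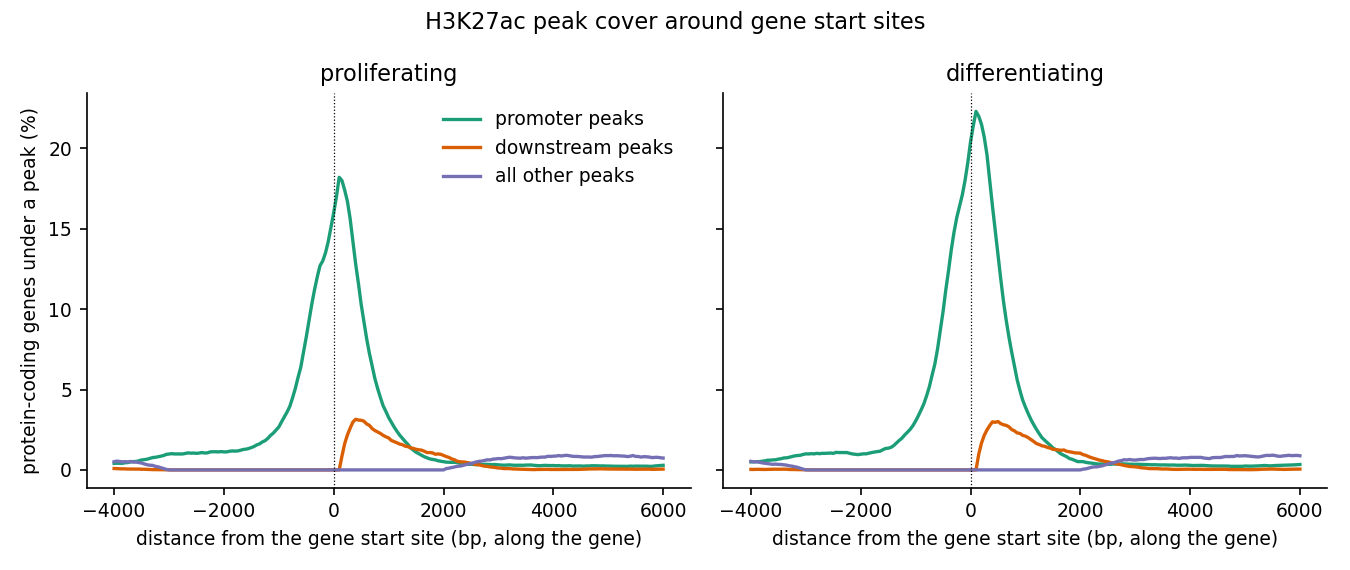
The share of 21951 protein-coding genes under a peak (y axis, %) is plotted every 50 bp against the distance from the gene start site along the gene (x axis), for promoter peaks, downstream peaks and all other peaks of each list. Promoter peaks crest at 100 bp after the start site (18.2% and 22.3% of genes), the limit that the rule sets between the classes, and downstream peaks at 400 and 500 bp (3.15% and 3.01%).

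The mirror image of the rule, peaks from just past 100 bp to 2000 bp upstream of a TSS that overlap nothing from 100 bp upstream to 3000 bp downstream of any TSS, found 491 peaks in proliferating and 401 in differentiating cells. Downstream peaks were thus 2.47 times (2.22 to 2.74) and 2.94 times (2.62 to 3.30) as many as upstream-only peaks. Upstream-only peaks all overlap the promoter region and are also counted among the promoter peaks. A CpG observed/expected ratio of at least 0.6, the number of CG over the number that the base composition gives, was found in 23.6% and 28.7% of the upstream-only peaks and in 58.4% and 59.2% of the downstream peaks. When the TSS of every protein-coding transcript was used in place of the gene TSS, for windows and promoter regions alike, 954 and 878 downstream peaks were left, upstream-only peaks numbered 713 and 575, and the ratios fell to 1.34 (1.21 to 1.48) and 1.53 (1.37 to 1.70).

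The density of peaks without a promoter overlap fell steeply with distance. Peak centres past 100 bp and up to 600 bp after a TSS numbered 44.5 per 1000 kb of window in proliferating cells and 40.5 in differentiating cells. Past 1100 bp and up to 1600 bp they numbered 15.9 and 15.6, past 2100 bp and up to 3100 bp 9.75 and 9.57, and past 3100 bp and up to 5100 bp 11.5 and 9.16. Most of the fall in density therefore lay within the downstream window.

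The centre of a downstream peak was most often in a first intron, which is also most of the stretch searched at genes with a median first exon of 244 bp and first intron of 4400 bp. It was in intron 1 of the transcript that starts at the gene TSS for 821 proliferating members (67.8%, 65.1% to 70.4%) and 790 differentiating members (67.0%, 64.2% to 69.7%), and in exon 1 for 201 (16.6%) and 196 (16.6%). The whole peak lay in introns alone for 288 (23.8%) and 298 members (25.3%), and 609 (50.3%) and 531 members (45.0%) overlapped coding sequence of some transcript. The genes had long first introns. The median first intron was 4611 bp for the 363 genes with a downstream peak in both lists and an intron, 3306 bp for genes with promoter peaks and no downstream peak, and 2586 bp for genes with neither.

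Many members lay over another annotated start. The start of another transcript lay under 459 proliferating members (37.9%, 35.2% to 40.7%) and 465 differentiating members (39.4%, 36.6% to 42.3%), in 427 and 440 of them a start of the same gene. The whole stretch from just past 100 bp to 2000 bp after the TSS held another start for 9587 of 21951 genes (43.7%). That stretch is longer than most members and the count covers all genes, so it gives no expected share for the members. APPRIS, an annotation of principal isoforms, named a principal transcript for 884 and 877 of the members' genes, and 186 and 199 of these members overlapped the promoter region of that transcript. Members over another start were more often CpG rich. Their CpG observed/expected ratio was at least 0.6 in 78.4% (74.4% to 82.1%) and 77.8% (73.8% to 81.5%), against 46.1% (42.5% to 49.8%) and 47.1% (43.3% to 50.8%) of the members without one.

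The sequence of the members was promoter-like in base composition. In the 500 bp at the peak centre the median GC content was 61.2% in both lists, and the median CpG observed/expected ratio was 0.693 and 0.695. Promoter peaks had ratios of 0.782 and 0.792, and other peaks within genes 0.194 and 0.194. The members' ratio depended on where they began. At least 0.6 was reached by 77.8% (73.8% to 81.5%) of the proliferating members that began within 250 bp of the TSS and by 14.6% (8.21% to 23.3%) of those that began past 1500 bp. In differentiating cells these shares were 72.3% (68.1% to 76.3%) and 20.3% (13.5% to 28.7%).

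**Figure D3:**
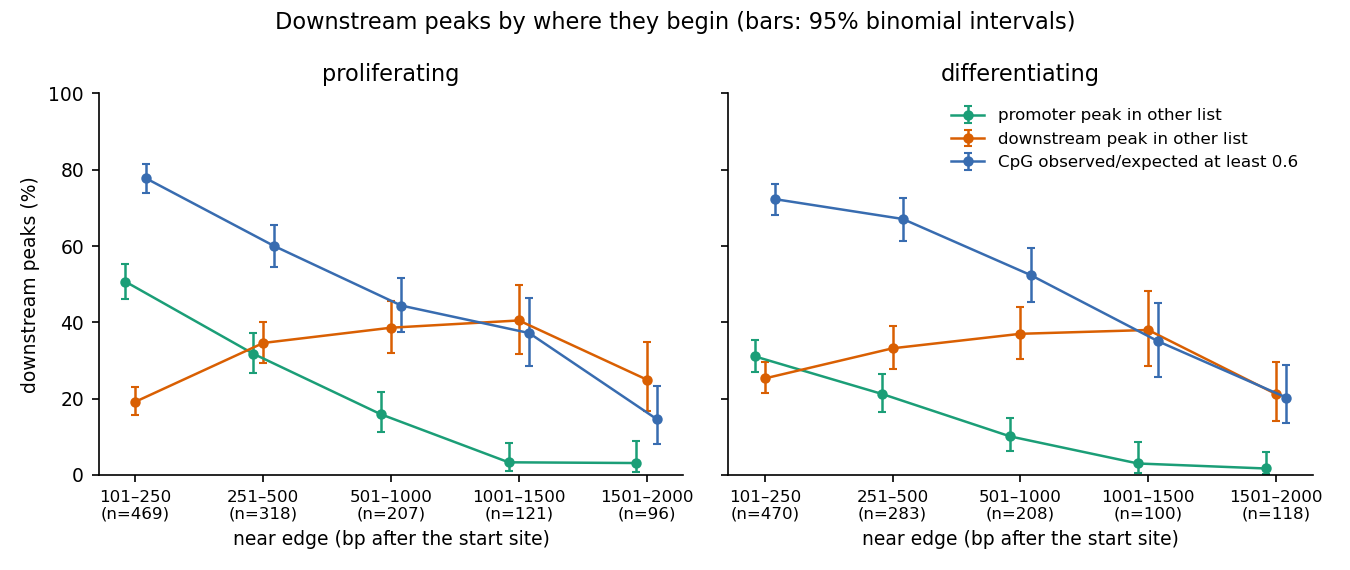
Downstream peaks are grouped by near edge in bp after the start site (x axis, with the number of peaks), and points give the share (y axis, %) that overlapped a promoter peak or a downstream peak of the other list or had a CpG observed/expected ratio of at least 0.6, with 95% binomial intervals. From the first to the last group the CpG-rich share goes from 77.8% to 14.6% on the left and from 72.3% to 20.3% on the right.

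The GC box and the ETS and YY1 patterns, known from promoters, were less common in the members than at promoter peaks. GGGCGG, the GC box bound by Sp1 and its relatives, was searched on both strands of the same 500 bp and found in 54.5% (51.6% to 57.3%) and 54.8% (51.9% to 57.7%) of the members, against 67.1% and 69.6% of promoter peaks and 19.8% and 22.8% of all peaks. The ETS pattern CCGGAAG stood at 11.1% and 8.74% in the members, in 823 of 4560 and 1011 of 5326 promoter peaks, and at 5.29% and 5.74% in all peaks. The YY1 pattern AANATGGC stood at 9.25% and 8.40%, below promoter peaks (14.3% and 14.1%) and all peaks (10.5% and 10.6%). The AP-1 pattern TGANTCA was found in 7.51% (6.09% to 9.15%) and 8.31% (6.80% to 10.0%) of the members, near the 6.93% and 6.55% of promoter peaks and below the 14.1% and 14.5% of other genic peaks. The SOX pattern ACAANG was found in 50.1% and 49.6% of the members against 46.9% and 47.6% of promoter peaks and 64.9% and 63.7% of all peaks. The E-box CAGNTG was found in 67.7% and 64.5% of the members, 59.9% and 61.3% of promoter peaks and 70.3% and 70.0% of all peaks. The patterns overlap each other and a match is a description of the letters, since factor binding was not measured.

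Downstream peaks were shared between the states more often than most peaks. A peak of the differentiating list overlapped 740 of the 1211 proliferating members (61.1%, 58.3% to 63.9%), against 29.2% of all proliferating peaks. A peak of the proliferating list overlapped 595 of the 1179 differentiating members (50.5%, 47.6% to 53.4%), against 30.1% of all differentiating peaks. The shares were 75.6% and 67.2% for promoter peaks and 41.8% and 37.2% for the upstream-only peaks among them. They were 20.7% and 21.4% for other genic peaks and 15.4% and 17.5% for intergenic peaks. When the shared bases had to make up 0.5 or more of each of the overlapping peaks, the members' shares were 30.0% and 25.4%.

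Sharing rose with peak strength, apart from the weakest upstream-only peaks of proliferating cells, so the classes were set side by side at equal strength, with q the peak caller's corrected p-value. At a −log10 q from 2 to 3, 62.1% (57.1% to 66.9%) of the proliferating members had an overlapping peak in the other list, against 73.6% (71.3% to 75.8%) of promoter peaks, 46.8% (38.8% to 54.9%) of upstream-only peaks and 24.6% (23.2% to 26.0%) of other genic peaks. In differentiating cells these shares were 50.3% (45.0% to 55.5%), 64.6% (62.2% to 67.0%), 44.9% (35.2% to 54.8%) and 838 of 3102. At a −log10 q of 5 or more, 91 of 95 proliferating members (95.8%, 89.6% to 98.8%) and 89 of 109 differentiating members (81.7%, 73.1% to 88.4%) were shared. The share of the differentiating members was then the lowest of the classes, against 82.6% of upstream-only, 86.3% of other genic, 88.8% of intergenic and 90.8% of promoter peaks, of which the last 2 lie above the members' interval. Members over another start had the higher share in all 5 groups of strength, with 80.3% (72.6% to 86.6%) against 52.7% (46.4% to 58.8%) at a −log10 q from 2 to 3 in proliferating cells. In that group the gap in differentiating cells was smaller, 56.4% (48.0% to 64.5%) against 46.0% (39.2% to 53.0%), and these intervals overlap. At a −log10 q from 3 to 5 it was larger in differentiating cells, 80.6% against 58.2%, than in proliferating cells, 79.7% against 68.3%. The state with the larger gap thus varied between groups. Members over another start were also wider, with medians of 716 and 744 bp against 472 and 528 bp, and the part of width was not tested.

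**Figure D4:**
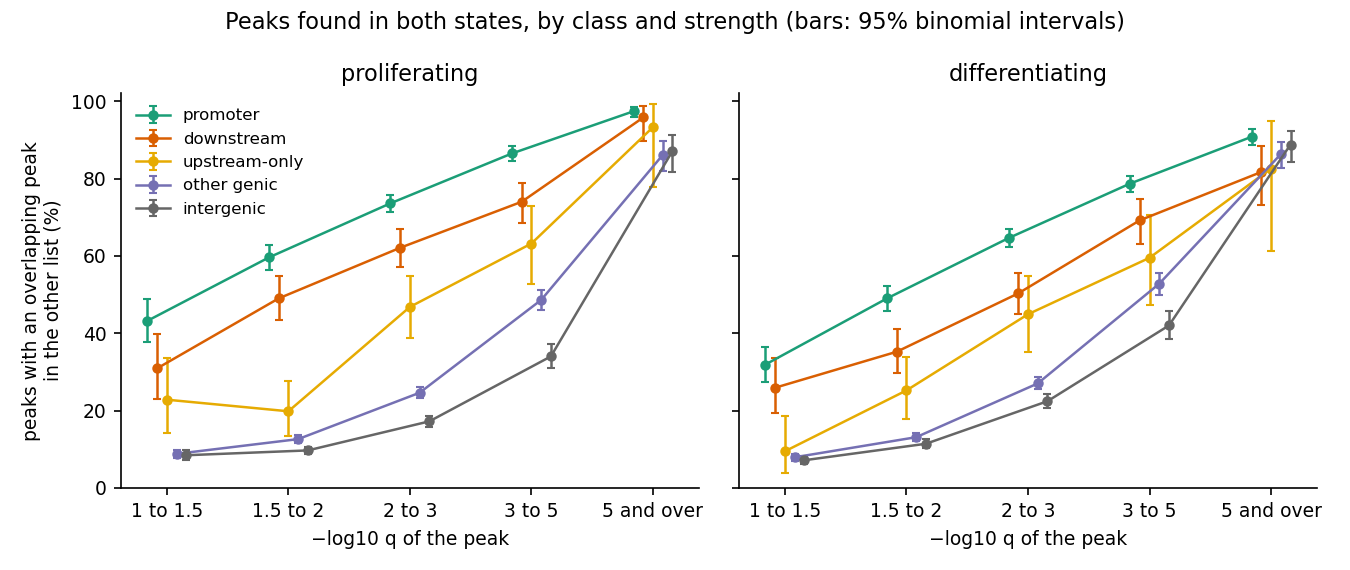
The share of peaks that overlap a peak of the other list (y axis, %) is plotted by the peak's −log10 q (x axis, 5 groups) for 5 classes of peaks, with 95% binomial intervals, for the proliferating list on the left and the differentiating list on the right. Upstream-only peaks are also counted among the promoter peaks. Downstream peaks lie between promoter peaks and the other classes up to a −log10 q of 5, for example at 62.1% and 50.3% in the group from 2 to 3.

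The peak in the other state was either a downstream peak as well or one that reached back over the promoter region. Of the proliferating members, 353 (29.1%, 26.6% to 31.8%) overlapped a downstream peak of the differentiating list, 379 (31.3%, 28.7% to 34.0%) a promoter peak, 8 another peak and 471 (38.9%) none. Of the differentiating members, 353 (29.9%, 27.3% to 32.6%) overlapped a downstream peak of the proliferating list, 232 (19.7%, 17.4% to 22.1%) a promoter peak, 10 another peak and 584 (49.5%) none. A promoter counterpart was thus more common for proliferating than for differentiating members. The differentiating list also held more promoter peaks (5326 against 4562) and wider peaks (a median of 755 bp against 652 bp) and, by the study's methods, came from more uniquely mapped reads, and the part of these in the shares was not tested.

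Where a member overlapped a downstream peak of the other list, the near edges lay a median of 122 bp apart without regard to sign, and 88 of 353 lay within 50 bp. These pairs were defined by their overlap, which limits the distance. Where the other list held a promoter peak, which the rule places closer to the TSS in most cases, the member began a median of 442 bp (proliferating) or 396 bp (differentiating) farther downstream, and the other peak was wider, with medians of 1030 bp and 1032 bp against 558 bp and 633 bp. The median ranks of these pairs were similar. Among proliferating members with a promoter counterpart the median percentile of −log10 q was 76.2 in their own list and 77.5 for the counterpart in the other. Pair by pair the ranks were only weakly related. The percentiles had a Spearman's rho of 0.20 for proliferating and 0.27 for differentiating members with a promoter counterpart. Members without a counterpart ranked lower, at median percentiles of 52.6 and 52.7.

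Among members found as downstream peaks in both states, Phf21a stood highest in both lists. Its fold enrichment was 9.42 in proliferating and 6.13 in differentiating cells, from chr2:92093498-92093770 and chr2:92093488-92095084. Asmt followed on chromosome X with 7.00 and 5.98. In the 500 bp at the proliferating peak's centre 64.2% of the bases for Phf21a and 73.6% for Asmt were masked as repeats in the reference, against a median of 5.40% over the members. Of all members, 20 of 1211 (1.65%) and 20 of 1179 (1.70%) had at least 50% masked bases there, and of the 20 members with the highest fold enrichment 2 did in proliferating cells (Phf21a and Asmt) and 1 in differentiating cells (Vmn2r4). For other classes these shares were 2.15% and 1.39% of promoter peaks and 9.88% and 9.86% of other genic peaks. The differentiating peaks of Phf21a and Asmt span the repeat stretches shown above but are centred elsewhere. Their central 500 bp therefore stayed below 50% masked bases, with 48.0% for Asmt.

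The next members in proliferating cells were Dnmt3a (6.18, against 3.57 in differentiating cells), Odf2, a sperm tail and centriole protein (5.85 and 4.22), Eif4ebp1, a repressor of cap-dependent translation (5.70 and 3.43), Tax1bp1 (5.67 and 3.75), the growth factor Hdgf (5.64 and 3.16), the TGF-β binding protein Ltbp3 (5.58 and 3.39), the NF-κB signalling adaptor Bcl10 (5.54 and 3.92) and the poly(A) binding protein Pabpn1 (5.50 and 3.89). In differentiating cells they were the small GTPase Rab11b (5.95, against 5.38 in proliferating cells), Trim39 (5.57 and 4.08), the Polycomb protein Pcgf1 (5.50 and 4.14), Cmtm6 (5.42 and 4.96), Vmn2r4 (5.40 and 4.65), the autophagy protein Trp53inp2 (5.31 and 3.62), the membrane-cytoskeleton linker Rdx (5.17 and 4.09) and Kbtbd8 (5.10 and 5.43). These rankings leave out members without a downstream counterpart. Noct, which they leave out, had the highest fold enrichment of all differentiating members. Fold enrichments come from separate peak calls, so only ranks within a list are comparable. Dnmt3a stood at percentile 99.1 of −log10 q in proliferating and 84.6 in differentiating cells, Eif4ebp1 at 98.8 and 64.7, and Hdgf at 98.0 and 59.9. Rab11b stood at 97.5 and 99.3 and Kbtbd8 at 97.3 and 97.0. Across the 353 proliferating members with a downstream counterpart the percentiles in the 2 lists had a Spearman's rho of 0.39, as a description over peaks of the same 2 libraries.

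**Figure D5:**
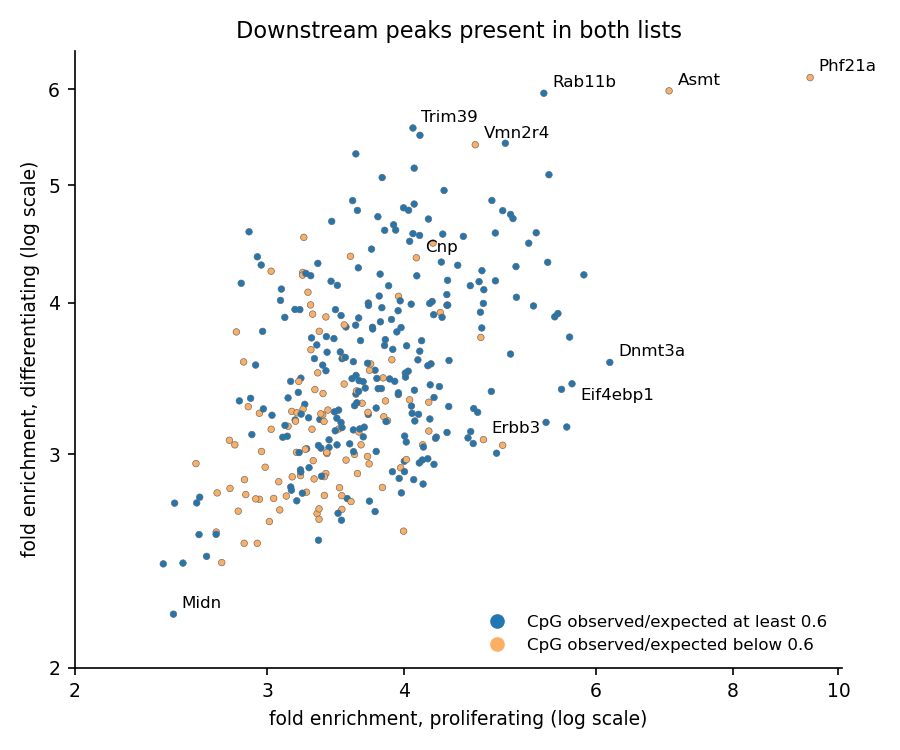
Each point is 1 of the 353 downstream peaks of proliferating cells that overlap a downstream peak of differentiating cells, with its fold enrichment in proliferating cells (x axis, log scale) and that of its counterpart (y axis, log scale), colored by the CpG observed/expected ratio of the proliferating peak. Phf21a (9.42 and 6.13) and Asmt (7.00 and 5.98), both below a ratio of 0.6, lie apart at the upper right.

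Strong members without any counterpart were found in both states. In proliferating cells Izumo1, a sperm-egg fusion protein, had a fold enrichment of 7.43 at chr7:45623475-45623952, which begins 1664 bp after the TSS, and 46.2% of its central 500 bp was masked as repeats. Ino80c, a remodeler subunit, followed with 5.09, Cdk5rap1 with 5.07, the motor protein Kif5b with 5.03 and Slain2 with 4.84. In differentiating cells the highest were Zfp639 (5.34), Elmod2 (5.26), Zfp367 (5.15), Plekha1 (5.02) and 2310034G01Rik (4.88). With 1 library per state, these differences between lists cannot be told apart from variation between libraries.

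The widest members had low fold enrichment. Elovl6, a fatty acid elongase, had a peak of 3601 bp in the proliferating and 4186 bp in the differentiating list, and its fold enrichment was 3.04 and 2.76. Kdm6b, a demethylase of the repressive mark on the same lysine, had peaks of 2779 bp and 3227 bp, with 2.51 and 2.44. Zcchc24, Mxi1, a repressor that competes with Myc for Max, and Ccdc93 had 3230, 2979 and 2725 bp in proliferating cells. The widest differentiating member, of 4733 bp, lay on the remodeler gene Chd3, where the peak stood at percentile 2.41 of fold enrichment and percentile 82.1 of −log10 q. The peaks of Midn (3519 bp) and Cyfip2 (3342 bp) in differentiating cells stood at percentiles 0.785 and 6.51 of fold enrichment.

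By gene, a downstream peak was found at 1233 of 21951 protein-coding genes (5.62%) in proliferating cells, at 1183 (5.39%) in differentiating cells, at 2033 (9.26%) in either list and at 383 in both. A promoter peak in the same list was found at 69 (5.60%) and 49 (4.14%) of these genes. In the other list it was found at 484 of 1233 (39.3%, 36.5% to 42.0%) and 314 of 1183 (26.5%, 24.0% to 29.2%). Of the 2033 genes, 1221 (60.1%, 57.9% to 62.2%) had no promoter peak in either list, and of the 383 genes with downstream peaks in both lists 357 (93.2%) had none, a share that follows largely from the rule, since a downstream peak nearly excludes a promoter peak in the same list. Counting downstream peaks beside promoter peaks raised the genes with a peak in either list from 7430 (33.8%) to 8651 (39.4%). The median CpG observed/expected ratio in the 500 bp at the TSS was 0.735 for genes with a downstream peak in either list, 0.599 for those with one in both lists, 0.586 for all protein-coding genes and 0.819 for genes with promoter peaks and no downstream peak, against 0.331 for genes with neither.

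Of 28 matched transcription factors of the oligodendrocyte lineage, 5 (17.9%, 6.06% to 36.9%) had a downstream peak in either list, against 9.26% of all genes. A promoter peak was found at 19 of them (67.9%), against 33.8% of all genes. Sox4, a SOX factor of immature cells, had one in both lists, at 500 to 3078 bp in proliferating cells and 294 to 1358 bp in differentiating cells, at percentiles 85.2 and 94.9 of −log10 q. Tcf12 began at 129 and 149 bp and Tcf7l2, a Wnt effector of oligodendrocyte differentiation, at 940 and 870 bp, with percentiles of 44.1 and 73.9 for Tcf12 and of 57.5 and 33.4 for Tcf7l2. Olig2, a master regulator of the lineage, had a downstream peak of low fold enrichment (2.01) in proliferating cells, beside promoter peaks in both lists. Tcf4 had a downstream peak in the proliferating list, at percentile 18.9.

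Of 28 matched myelin genes, 3 (10.7%) had a downstream peak and 9 (32.1%) a promoter peak, near the 9.26% and 33.8% of all genes. Cnp had one at chr11:100575060-100575754 in proliferating and chr11:100575062-100576190 in differentiating cells, 156 and 158 bp after the TSS. Its fold enrichment was 4.11 and 4.36 and its percentile of −log10 q 94.4 and 98.2, and starts of other Cnp transcripts lay under both peaks. The tight junction gene Cldn11 (3.78) and the tetraspanin gene Tspan2 (3.54) had a downstream peak in the differentiating list and no overlapping peak in the proliferating list.

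Of 29 receptors for growth factors and other ligands, 6 had a downstream peak (20.7%, 7.99% to 39.7%), against 9.26% of all genes. Of these 6, 5 had no promoter peak in either list. A promoter peak was found at 10 of the 29 (34.5%), near the 33.8% of all genes. Erbb3 had peaks from 1733 to 2691 bp in proliferating cells and from 1598 to 3364 bp in differentiating cells, at percentiles 98.6 and 93.3, with a fold enrichment of 4.73 and 3.08. Its relative Erbb4 had a member in proliferating cells, beginning at 1586 bp, that overlapped a promoter peak of differentiating cells. The neurotrophin receptor gene Ntrk2 had one in both lists, beginning at 1386 and 442 bp. The receptor genes Fgfr3 and Notch2 and the thyroid hormone receptor gene Thrb had one in the differentiating list alone, with a fold enrichment of 3.09, 3.25 and 3.84.

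Of 34 genes of cholesterol, fatty acid and sphingolipid synthesis, 6 had a downstream peak (17.6%, 6.76% to 34.5%), against 9.26% of all genes. A promoter peak was found at 26 of them (76.5%), against 33.8% of all genes. Fdft1, the squalene synthase gene, had peaks of fold enrichment 4.02 and 3.47 that began at 821 and 870 bp, and Degs1 had peaks of 3.48 and 4.13 at 131 and 205 bp. Msmo1, a sterol oxidase, had a fold enrichment of 7.01 at 253 bp in proliferating cells, at percentile 99.3, and the peak it overlapped in differentiating cells was a promoter peak of 3.35. Elovl5 showed the reverse, with a member of 3.87 in differentiating cells and a promoter peak in proliferating cells. Sptlc1, a subunit of serine palmitoyltransferase, had a member in proliferating cells alone, at percentile 18.5.

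Of 26 immediate early genes, 6 (23.1%, 8.97% to 43.6%) had a downstream peak, against 9.26% of all genes. A promoter peak was found at 15 of them (57.7%), against 33.8% of all genes. The AP-1 genes Junb and Jund had one in proliferating cells, at fold enrichments of 2.88 and 4.17, and Egr2 and Ier5 in differentiating cells, at 3.14 and 3.32. Jund and Ier5 overlapped a promoter peak in the other list and Junb and Egr2 overlapped none. Mafk had one in both lists that overlapped, and the 2 peaks of Maff did not overlap each other.

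Genes of general functions were counted in the same way. Of all genes, 9.26% had a downstream peak in either list and 33.8% a promoter peak. The share with a promoter peak was 66.7% for the cell cycle list, 71.0% for chromatin genes and 71.1% for ribosomal protein genes. For oxidative phosphorylation, chaperone, Zfp and olfactory receptor genes it was 56.0%, 60.8%, 46.0% and 2.29%. Of 39 cell cycle and replication genes 7 (17.9%, 7.54% to 33.5%) had a downstream peak, with Pcna and E2f3 in both lists. Of 69 chromatin enzymes and remodelers 13 (18.8%, 10.4% to 30.1%) had one, and Kdm2a, Kdm5b, Kdm6b, Smarcd1, Chd3 and Dnmt3a had it in both lists. Of 83 ribosomal protein genes 14 (16.9%, 9.54% to 26.7%) had one, 10 in proliferating and 5 in differentiating cells, with Rpl38 in both. Several of these 14 had a promoter peak in the other list, among them Rpl27, Rpl30, Rps19 and Rps20 in differentiating cells and Rplp0 in proliferating cells. Of 84 nuclear genes of oxidative phosphorylation 10 (11.9%, 5.86% to 20.8%) had one, of 74 chaperone genes 5 (6.76%, 2.23% to 15.1%), and of 365 genes named Zfp 43 (11.8%, 8.66% to 15.5%). Of 1092 olfactory receptor genes, which are silent outside the olfactory epithelium in most settings, 15 (1.37%, 0.771% to 2.26%) had one, against 9.26% of all genes.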

How the data were processed

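H3K27ac peaks of Oli-neu cells were taken from the 2 peak lists that the authors deposited, 1 per state. Per the study's methods, reads were mapped to GRCm38/mm10 with Bowtie2 2.1.0, duplicates were removed with SAMtools, broad peaks were called with MACS2 2.0.10 and blacklisted regions were removed. A control library is not given in the sources used here. The deposited lists give the position of each peak and, without a header, 3 numbers in 1 cell. These were taken, in the usual MACS2 order, as a ratio (fold enrichment), the −log10 of p and the −log10 of q. The study's methods state a q cutoff of 0.05, but the weakest value read as q from the deposited lists was 0.0995 and 0.0983, and 27795 of 28924 and 24750 of 27965 peaks had a q of at most 0.05. The reading of that value and the stated cutoff thus differ, and the sources used here do not give the reason. The methods give more uniquely mapped reads for the differentiating library. Read counts per peak are not in the lists, and depth is therefore unknown at the level of the peak. The shortest width, 263 bp and 279 bp, was shared by 6626 and 4898 peaks.

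Gene and transcript starts, exons and introns came from GENCODE M21, on the same build, with 21951 protein-coding genes. The authors used another annotation release. Any shared base counted as an overlap. Percentiles rank a peak within its list. Motifs, CpG and repeat masking (lower-case letters) were read from GRCm38.p6 in 500 bp at the peak centre. Intervals are 95% exact binomial and cover counting error only. With 1 library per state no test was run. Alternatives were another TSS set, promoter region, window, centre rule, q threshold, chromosome set and overlap. The code of the classes was run on simulated peaks placed with the same window rules, and 100% were recovered. It used 2761 genes with no other promoter region nearby, so crowded places were not checked. Python 3.11.15, numpy 2.4.6, scipy 1.17.1 and matplotlib 3.10.9 were used.

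The genes named are, in each list, the 10 members of highest fold enrichment that overlap a downstream peak of the other list, the 5 highest without a counterpart, the 5 widest, those nearest the limits of the rule and those of the gene lists. Some of these are not reported here. The stretches shown, the splits by repeats and by another start at equal strength, and Gap43 and Gja1 were chosen after their values were seen. The members and gene lists were chosen with earlier results of these data known. The 6 ATAC-seq samples (3 siCtrl and 3 siPadi2) were not analysed here.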

Additional observations from a re-analysis of the deposited data

How the results depend on the processing

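In this paragraph each pair of values gives proliferating cells first and differentiating cells second, and the reported values are 4.19% and 4.22% of peaks, 61.1% and 50.5% with a counterpart, 2.47 and 2.94 downstream for each upstream-only peak, and 37.9% and 39.4% over another start. With the TSS of every protein-coding transcript they were 3.30% and 3.14%, 42.8% and 38.0%, 1.34 and 1.53, and 11.8% and 10.7%, the last because protein-coding starts were then excluded. With a window to 1000 bp they were 3.44% and 3.44%, 65.7% and 54.0%, 3.22 and 3.61, and 41.4% and 42.7%. With a window to 5000 bp they were 6.62% and 6.37%, 48.9% and 44.8%, 1.83 and 2.0, and 30.1% and 33.9%. When both lists were limited to a −log10 q from 5 up they were 7.56% and 6.81%, 36.8% and 26.6%, 3.17 and 4.74, and 63.2% and 55.0%, where counterparts also had to pass. With the peak centre in the window the share of peaks was 3.93% and 3.87%, with a q of at most 0.05 it was 4.46% in differentiating cells, and where the shared bases had to make up 0.5 or more of each peak the counterpart share was 30.0% and 25.4%. The other 29 of 66 alternative values lay within the interval of the reported value, among them all 8 with a promoter region from 6000 bp upstream and all 8 on chromosomes 1 to 19. The number of downstream peaks stayed above that of upstream-only peaks under each alternative. Apart from the constructions named, the cause of these moves was not tested. No paired analysis was possible because each state has 1 library. A missing peak may reflect depth, which the lists do not give per peak.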

Other observations

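Downstream peaks were spread over the chromosomes differently from the lists as a whole. Chromosomes 1, 10 and 15 held 33.1% of all proliferating peaks and 33.8% of all differentiating peaks, and 13.7% of the protein-coding genes. Of the downstream peaks they held 20.9% in proliferating cells and 20.4% in differentiating cells, between the share of peaks and the share of genes. These chromosomes were singled out after their values were seen, and no cause was tested.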
